A study of Mus musculus with 12 samples.

Results

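The genes described here encode enzymes that build glycans and place or remove sulfate on them: glycosyltransferases, sialyltransferases, fucosyltransferases, glycosaminoglycan and glycan sulfotransferases, hyaluronan synthases and the extracellular sulfatases *Sulf1* and *Sulf2*. They were chosen by gene symbol alone (symbol stems such as Chst, Hs3st, Ndst, St3gal, St8sia, Galnt, Mgat, Fut and Has), and 65 of the 4859 coding genes in the deposited table matched. The table lists genes that the authors reported as differentially expressed between the sorted populations, so enzymes that did not pass that selection were not analysed here. *Chst8*, a sulfotransferase gene, was the starting point of the group. The authors had already selected it for a higher level in the reporter-expressing cells at every stage.

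RNA was sequenced from cells of the cerebral cortex of Tg(Ebf2-EGFP)FB58Gsat mouse embryos, which carry a transgene in which EGFP is expressed under control of *Ebf2* regulatory sequence. FACS at E11.5, at E13.5 and again at E15.5 separated the cells that express the reporter (Ebf2-EGFP+, below EGFP+) from those of the same transgenic cortex that do not (Ebf2-EGFP-, below EGFP-), which gave 6 groups with 2 libraries each. The libraries of a group are separate preparations of sorted cells that the study calls biological replicates, each from several pooled embryos. No other allele or treatment is given, and the control in each comparison is the EGFP- population, a mixture of the remaining cortical cells. The reporter follows *Ebf2* rather than a single cell type, and is described in the study as marking preplate neurons (subplate and Cajal-Retzius neurons) at the first stage and mostly Cajal-Retzius neurons at the last.

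The sorted populations carried the markers of their labels, with exceptions. *Ebf2* stood at 61.2 and 49.1 FPKM (fragments scaled by transcript length and by all mapped fragments of the library) in the 2 EGFP+ libraries at E11.5 against 1.17 and 0.952 FPKM in the EGFP- libraries, and at E15.5 at 2.83 and 5.14 against 0.103 and 0.0644 FPKM. The 8 Cajal-Retzius markers, *Reln* and *Trp73* among them, summed to higher FPKM in both EGFP+ libraries at every stage, and the 7 radial glia and 5 cell cycle markers summed to lower FPKM at every stage. At E15.5 the 6 cortical plate markers summed to 1024 and 693 FPKM in EGFP+ cells and to 884 and 739 FPKM in EGFP- cells, so the populations overlapped in these markers of other neurons. The E11.5 EGFP- libraries also held erythroid transcripts (4 of 7 markers listed, 1306 and 2752 FPKM against 97.1 and 32.9 in EGFP+ cells) and the most transcripts of meningeal or fibroblast genes (7 of 7 listed, 136 and 115 against 43.1 and 48.7 FPKM), while later the meningeal sums were at most 7.61 FPKM. Their part in the differences below was not tested.

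As background, glycans are assembled in the Golgi apparatus by enzymes that each add 1 sugar or 1 sulfate in a given linkage, so the set of enzymes a cell transcribes bounds the glycans it can present. Heparan sulfate and chondroitin sulfate chains are carried by proteoglycans, and the positions of their sulfates govern the binding of growth factors and guidance cues. In the developing cortex, polysialic acid on the adhesion molecule NCAM, the sulfated HNK-1 epitope, gangliosides and the O-mannose glycans of dystroglycan are further products of these enzymes, with known roles in adhesion, migration and axon growth. RNA levels are described below, and neither enzyme activity nor glycans were measured.

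The promoter sequences of 3 members are shown because the cells were sorted by a reporter of *Ebf2*, an EBF family transcription factor that binds the palindrome TCCCNNGGGA (N is any base, and the letters read alike on both strands). Each sequence holds the 250 bases before the RefSeq start of the gene (assembly GRCm38.p6), written 5′ to 3′ on the strand of the gene in lower case, with a match to the palindrome in capitals. *Hs3st4*, the member with the highest EGFP+ level at E15.5, and *Chst3*, a gene lower in EGFP+ cells at every stage, hold 1 match each, beginning 225 and 198 bases before the start, and *Chst8* holds none.
Hs3st4, chr7:123982578-123982827, plus strand: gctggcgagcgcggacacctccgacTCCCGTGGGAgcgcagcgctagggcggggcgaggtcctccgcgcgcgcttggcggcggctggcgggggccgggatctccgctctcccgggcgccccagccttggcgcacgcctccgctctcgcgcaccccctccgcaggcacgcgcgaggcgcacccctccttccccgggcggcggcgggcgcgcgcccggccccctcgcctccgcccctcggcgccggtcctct
Chst3, chr10:60219261-60219510, minus strand: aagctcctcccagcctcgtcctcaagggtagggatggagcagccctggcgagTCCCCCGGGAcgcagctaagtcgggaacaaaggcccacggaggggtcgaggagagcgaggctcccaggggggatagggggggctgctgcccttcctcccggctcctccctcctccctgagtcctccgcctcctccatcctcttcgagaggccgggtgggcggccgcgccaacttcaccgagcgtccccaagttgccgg
Chst8, chr7:34812712-34812961, minus strand: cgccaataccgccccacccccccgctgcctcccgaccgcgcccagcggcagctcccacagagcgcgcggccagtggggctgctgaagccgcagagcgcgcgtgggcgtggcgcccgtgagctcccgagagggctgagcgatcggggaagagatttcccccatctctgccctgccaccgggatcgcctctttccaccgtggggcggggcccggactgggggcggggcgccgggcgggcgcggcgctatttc
Promoter windows of 46 of the 65 genes could be matched by symbol, and the palindrome was present in those of 2 (4.35%), *Hs3st4* and *Chst3*, against 287 of 27025 genes (1.06%) with a window of the same kind. A match is a description of the letters and not a bound site, and the genes that hold it differed between the populations in opposite directions.

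Across the 65 genes, more were higher than lower in EGFP+ cells at each stage, while on the deposited FPKM more genes of the whole table were lower. At E11.5, 30 members were higher and 18 lower in EGFP+ cells (limma on log2(FPKM + 1) over all 12 libraries, adjusted p under 0.05), against 36.8% higher and 44.9% lower of all 4859 genes; the members' shares were 46.2% and 27.7%. At E13.5 the counts were 29 higher and 14 lower (44.6% and 21.5% of members, 32.1% and 43.5% of all genes), and at E15.5 28 higher and 15 lower (43.1% and 23.1% of members, 25.8% and 31.6% of all genes). Of all genes called, 45%, 42.4% and 45% were higher at the 3 stages, which became 49.8%, 52% and 54.7% with median-of-ratios scaling, against 62.5%, 67.4% and 65.1% of the members called, which became 64.7%, 75% and 73.8%. The factors of this scaling were computed from these same selected genes and centre their ratios. The nearly even shares of all genes are therefore built in, and which scaling is right cannot be told from them. Counted by overlap alone, both EGFP+ libraries lay above both EGFP- libraries for 35, 36 and 34 members at the 3 stages (42.5%, 39.1% and 34.7% of all genes), and both EGFP- libraries lay above for 23, 18 and 20 (50.1%, 49.7% and 44.6%). The median difference of the members in log2(FPKM + 1) was 0.34, 0.39 and 0.27 at the 3 stages, against -0.19, -0.19 and -0.11 over all genes. These counts describe a table that was itself selected on the population difference. In RNA from sorted pools, fewer cells of a type and less RNA per cell cannot be told apart.

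Counts of differences at least 2-fold in size depended on the scale. On log2(FPKM + 1) at E15.5, 17 members (26.2%) were called and at least 2-fold higher in EGFP+ cells and 1 (1.54%), *Hs3st1*, was at least 2-fold lower, where 11.1% and 13.4% of all genes were. The corresponding counts were 14 higher and 9 lower at E11.5 (21.4% and 30.8% of all genes) and 12 and 6 at E13.5 (13.4% and 24%). With a pseudocount of 0.1 in place of 1, 18 members were at least 2-fold higher and 9 lower at E15.5 (14.4% and 22.6% of all genes), the lower ones being *B3galnt2*, *B4galt1*, *Chst3*, *Chst11*, *Fut10*, *Has2*, *Hs3st1*, *Ndst3* and *St8sia4*. Of the calls between the populations, 44 of 48 at E11.5, 29 of 43 at E13.5 and 27 of 43 at E15.5 remained past the threshold whichever library was left out. Without replicate 1 of the E15.5 EGFP+ cells, 8 members in place of 15 were lower at E15.5. Shares of all genes under these omissions are not given here, so a loss particular to the members cannot be read from these counts.

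**Figure D1:**
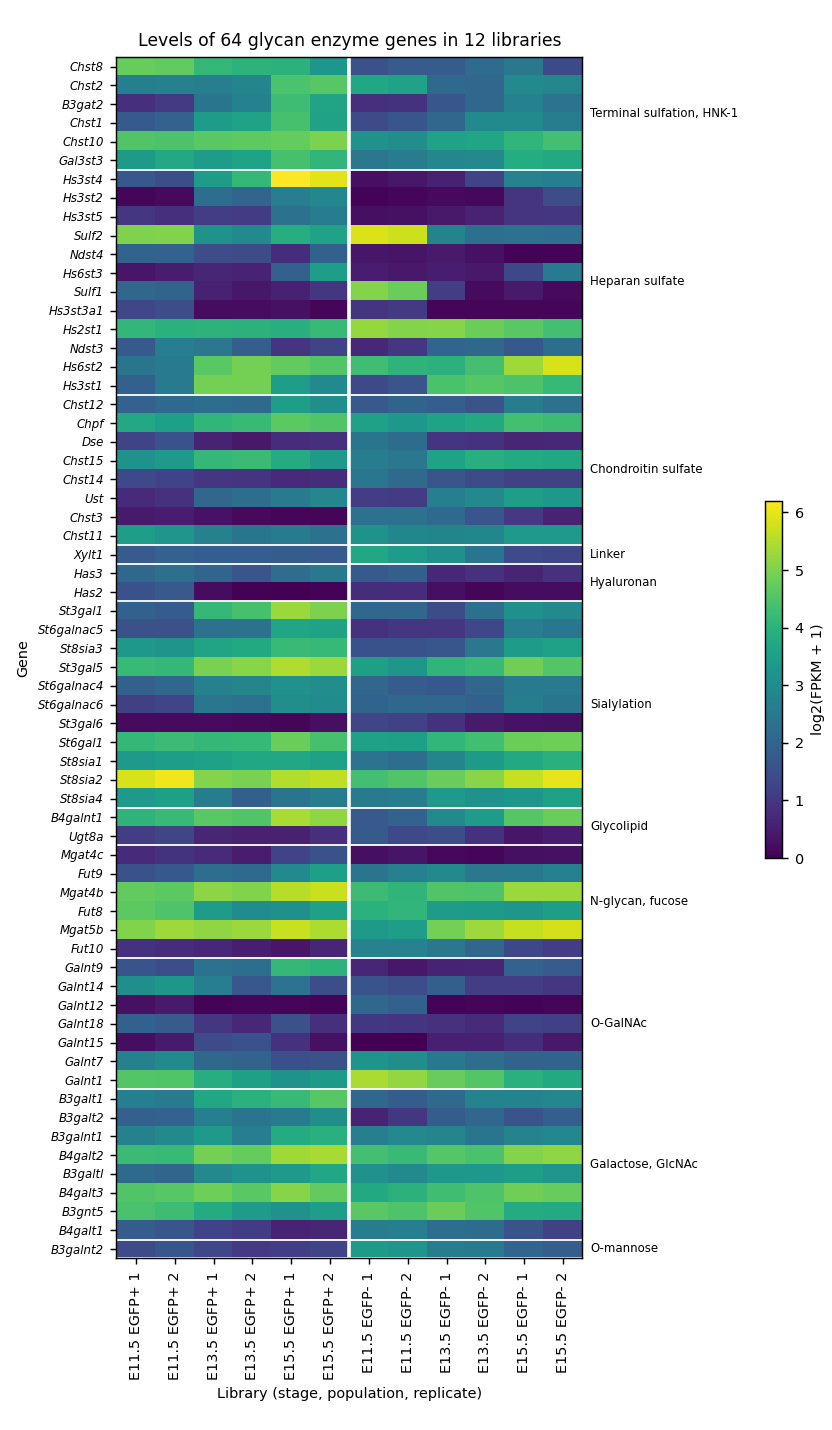
Levels of 64 of the genes in the 12 libraries as log2(FPKM + 1), from dark (0) to yellow, 1 row per gene grouped by enzyme family and 1 column per library, with EGFP+ libraries left of the white line and EGFP- libraries right of it. *Hs3st4* reaches its highest values in the 2 E15.5 EGFP+ libraries (72.9 and 60.8 FPKM), and *Chst8* is brighter on the left in every stage.

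By pattern over the stages, 15 members (23.1%) were higher in EGFP+ cells at all 3 stages, against 14.6% of all genes: *B3galt1*, *B3galt2*, *B4galnt1*, *Chst8*, *Chst10*, *Gal3st3*, *Galnt9*, *Hs3st4*, *Hs3st5*, *Mgat4b*, *Mgat4c*, *Ndst4*, *St3gal5*, *St6galnac5* and *St8sia3*. A group of 7 (10.8%, against 21.8% of all genes) was lower at all 3 stages, namely *B3galnt2*, *B4galt1*, *Chst3*, *Chst14*, *Fut10*, *Galnt1* and *Hs2st1*. A further 10 members (15.4%, against 7.66%) were higher at E11.5 and not called later, among them *Mgat5b*, *St8sia2* and *Has2*, and with the replicate number as a block 7 of these 10 kept the pattern, against 4.49% of all genes. Opposite calls at E11.5 and E15.5 were found for 7 members (10.8%, against 6.81%): *Chst2*, *Fut9*, *St6galnac6* and *Sulf2* went from lower to higher, and *Hs3st1*, *Ndst3* and *St8sia4* from higher to lower. Whichever library was left out, 8 of the 15, 4 of the 7 lower at all stages, and 3 of the 7 with opposite calls (*Chst2*, *St8sia4* and *Sulf2*) kept the calls of their pattern. The shares of all genes that did so are not given here. The E15.5 call of *St6galnac6* (0.51) was lost with 0.51 in a fit of the compared groups only, 0.39 without replicate 2 of the E15.5 EGFP- cells and 0.47 without replicate 1 of the E15.5 EGFP+ cells, and that of *Mgat4b* (0.34) in 10 of the 12 omissions (values from 0.26 to 0.42). *Hs6st3*, a heparan 6-O-sulfotransferase gene, passed the threshold at no stage (with the replicate number as a block, 0.75 at E15.5, adjusted p = 0.000586). Exons of 22 members overlap those of a gene on the opposite strand, and for 11 of them that gene is protein-coding (*B3galnt2*, *B3galt2*, *B3gat2*, *B4galnt1*, *B4galt2*, *B4galt3*, *Has3*, *Hs3st3a1*, *St3gal6*, *St6galnac5* and *Sulf2*). Whether the counting used strand is not stated, so the values of these genes may hold reads of both partners.

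**Figure D2:**
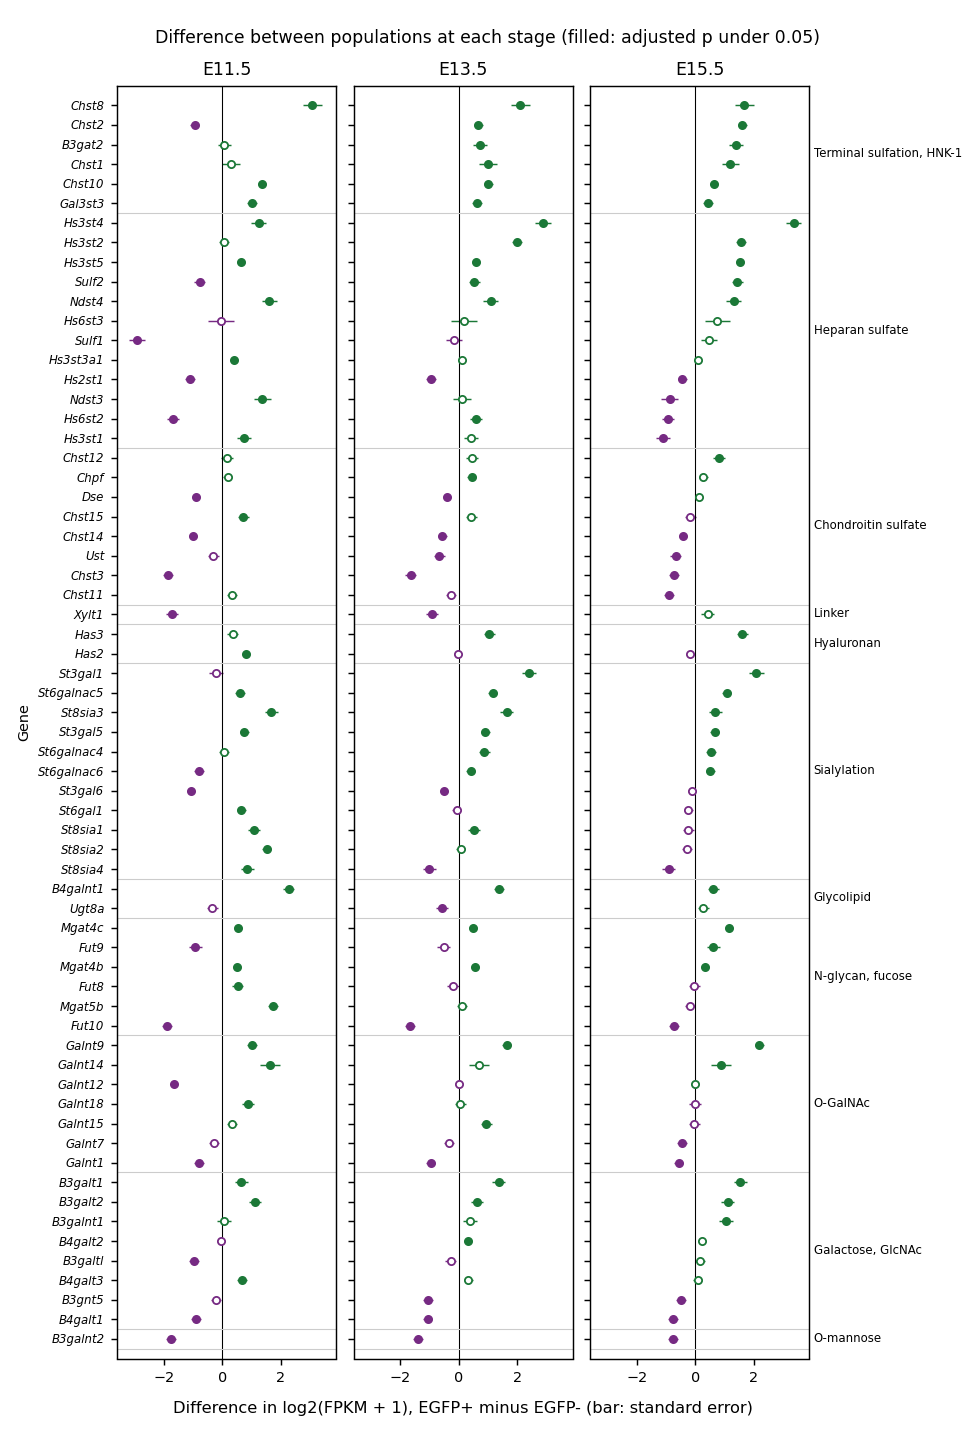
Difference in log2(FPKM + 1) between EGFP+ and EGFP- cells for 64 of the genes at the 3 stages, with the standard error of the fit as a bar, green for higher and purple for lower in EGFP+ cells, filled where the adjusted p is under 0.05. The E15.5 panel has 1 filled point below -1, *Hs3st1*, while the E11.5 panel has 9.

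Among the hand-sorted families of several members, the enzymes of terminal sulfation and of the HNK-1 epitope had the most uniform direction at the later stages. All 6 members were higher in EGFP+ cells at E13.5 and E15.5, where 32.1% and 25.8% of all genes were. The calls of *Chst1* and *Gal3st3* at both stages, and of *B3gat2* at E13.5, were lost in some omissions of a library. The family was sorted with earlier results known and holds *Chst8*, which the authors had selected as higher, so its uniformity is a description. At E15.5 the count was 5 with a pseudocount of 0.1, and also 5 in a fit of the compared groups only. At E11.5, 3 were higher, 1 was lower and 2 were not called (36.8% of all genes higher and 44.9% lower). *Chst8* (chr7:34674468-34812711, minus strand in the GENCODE M21 annotation of GRCm38, the assembly also called mm10) encodes a sulfotransferase that adds sulfate to the 4-position of terminal N-acetylgalactosamine, a modification known from the N-glycans of pituitary hormones. In EGFP+ cells *Chst8* stood at 26.3 and 25.1 FPKM at E11.5, 16.6 and 15.2 at E13.5, then 14.9 and 8.55 at E15.5. The EGFP- libraries held 1.9 and 2.45, 2.47 and 3.48, and 4.62 and 1.62 FPKM. Every EGFP+ library lay above every EGFP- library, and at E15.5 the 2 libraries of each population lay further apart than at the earlier stages. The authors listed *Chst8* as specific to Cajal-Retzius neurons after FPKM and fold limits on these same populations at every stage. Its order between the populations was thus largely fixed by that choice, and its differences are descriptions. The difference in log2(FPKM + 1) was 3.08 ± 0.32 (SE, adjusted p = 5.38e-06) at E11.5, 2.10 ± 0.32 (SE, adjusted p = 0.000143) at E13.5 and 1.68 ± 0.32 (SE, adjusted p = 0.00106) at E15.5.

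The level of *Chst8* in EGFP+ cells was lower at E15.5 than at E11.5, with a log2 difference of -1.12 ± 0.32 (SE, adjusted p = 0.00799), a call that was lost with -0.75 without replicate 2 of the E15.5 EGFP+ cells. In EGFP- cells the change was 0.28 ± 0.32 (SE, adjusted p = 0.428). The population difference itself changed by -1.40 ± 0.46 (SE, adjusted p = 0.0206), and this call was lost with -1.27 without replicate 1 of the E11.5 EGFP- cells, -1.36 without replicate 1 of the E11.5 EGFP+ cells, -0.85 without replicate 1 of the E15.5 EGFP- cells and -1.03 without replicate 2 of the E15.5 EGFP+ cells. The 3 members whose log2(FPKM + 1) over the 12 libraries followed *Chst8* most closely were *Ndst4* (Pearson's r = 0.863, Spearman's rho = 0.804), *Galnt14* (r = 0.819, rho = 0.783) and *Chst10* (r = 0.735, rho = 0.650). These coefficients are descriptions, since the 12 libraries share their 6 groups and the 2 populations differ in the level of all 4 genes at E11.5.

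*Chst10*, which encodes the sulfotransferase that completes the HNK-1 epitope, rose in level in both populations but kept its order, with 21.9 and 21.2 against 8.17 and 7.38 FPKM at E11.5 and 25.5 and 30.5 against 16 and 19.3 FPKM at E15.5. Its log2 differences were 1.36, 1.02 and 0.64 ± 0.15 (SE, adjusted p = 0.00362), and the libraries did not overlap at any stage. *B3gat2*, a glucuronyltransferase gene of the same epitope, was low in both populations at E11.5, at 0.813 and 1.07 FPKM in EGFP+ and 0.812 and 0.861 in EGFP- cells. By E15.5 it reached 18.3 and 11.4 against 5.64 and 4.14 FPKM, without overlap, a log2 difference of 1.41 ± 0.24 (SE, adjusted p = 0.000449). At E13.5 the difference was 0.72 ± 0.24 (SE, adjusted p = 0.0165), lost with 0.52 without replicate 1 of the E13.5 EGFP- cells and 0.56 without replicate 2 of the E13.5 EGFP+ cells. Within EGFP+ cells the rise of *Chst10* between E11.5 and E15.5 was small (0.36 ± 0.15 SE, adjusted p = 0.0472) and its call was lost in 7 of the 12 omissions (values from 0.23 to 0.48).

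*Chst2*, whose product sulfates N-acetylglucosamine at its 6-position, changed its order between the populations. EGFP+ libraries held 5.4 and 5.54 FPKM at E11.5 against 11.9 and 11 in EGFP- libraries, and 20.9 and 23 against 6.8 and 6.29 FPKM at E15.5. The populations were apart at both stages and in opposite order, with log2 differences of -0.94 ± 0.15 (SE, adjusted p = 0.000121) and 1.61 ± 0.15 (SE, adjusted p = 8.3e-06). From E11.5 to E15.5 *Chst2* rose by 1.83 in EGFP+ cells and fell by 0.72 in EGFP- cells on the log2 scale, and it was the 1 member of the 65 that was called in these opposite directions, a pattern that 2.88% of all genes showed. The family also holds *Gal3st3*, which encodes a galactose 3-O-sulfotransferase, and *Chst1*, which encodes a keratan sulfate sulfotransferase. Their differences were 1.01 for *Gal3st3* at E11.5 (adjusted p = 0.000202) and 1.202 for *Chst1* at E15.5 (adjusted p = 0.00559), the latter lost with 0.80 without replicate 1 of the E15.5 EGFP+ cells. At E13.5 the calls of *Gal3st3* (0.62, lost with 0.53 without replicate 2 of the E13.5 EGFP+ cells) and *Chst1* (0.997, lost with 0.55 without replicate 1 of the E13.5 EGFP- cells and 0.91 without replicate 2 of the E13.5 EGFP+ cells) also depended on single libraries, and at E15.5 the call of *Gal3st3* (0.44) was lost in 9 of the 12 omissions (values from 0.28 to 0.60).

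**Figure D3:**
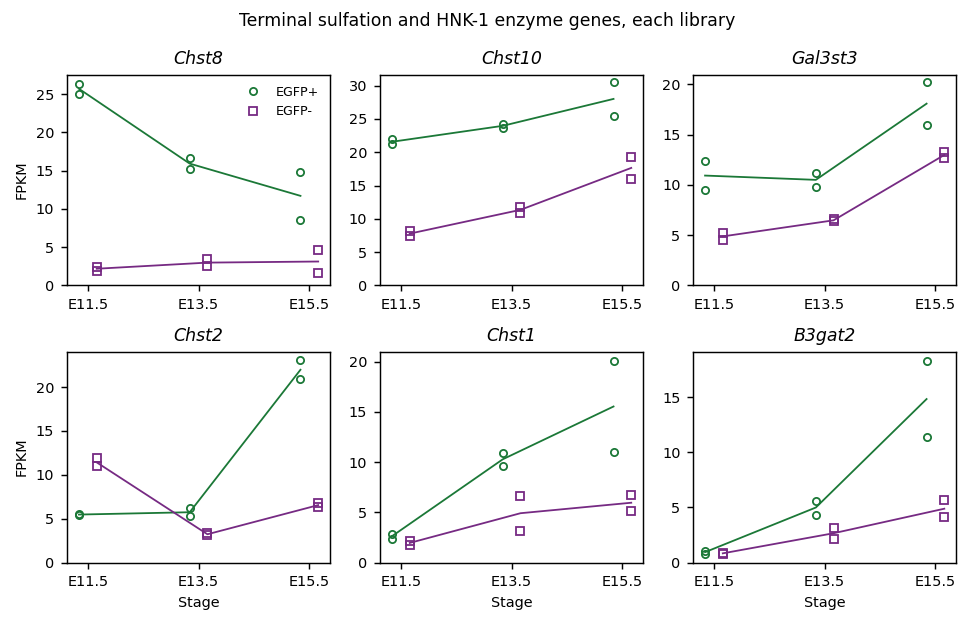
FPKM of the 6 terminal sulfation and HNK-1 enzyme genes in each library by stage, circles for EGFP+ and squares for EGFP- cells, with lines through the group means and a linear axis from 0 in each panel. *Chst8* lies above in EGFP+ cells throughout and declines in mean from 25.7 to 11.7 FPKM, whereas *Chst2* changes from 5.47 against 11.4 FPKM at E11.5 to 22 against 6.55 at E15.5.

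Among the heparan sulfate enzymes the directions were mixed, and the largest E15.5 difference of all 65 genes on the log2(FPKM + 1) scale was found there. Of the 12 listed, 6 were higher and 4 lower in EGFP+ cells at E11.5, 6 and 1 at E13.5, then 5 and 4 at E15.5. Over all genes the shares were 36.8% higher and 44.9% lower, 32.1% and 43.5%, then 25.8% and 31.6%. The 3-O-sulfotransferases place a rare sulfate that is the last modification of the chain. *Hs3st4* (chr7:123982869-124398989, plus strand) stood in EGFP+ cells at 2.21 and 1.82 FPKM at E11.5, 9.81 and 16.6 at E13.5, then 72.9 and 60.8 at E15.5. In EGFP- cells it stood at 0.201 and 0.319, 0.482 and 1.36, and 5.78 and 5.35 FPKM. Both populations were higher at E15.5 than at E11.5 and did not overlap at any stage, with log2 differences of 1.26 ± 0.26 (SE, adjusted p = 0.000772), 2.88 ± 0.26 (SE, adjusted p = 5.94e-06) and 3.36 ± 0.26 (SE, adjusted p = 2.45e-06). An exon of it overlaps the opposite-strand gene *Gm27040*. Its rise from E11.5 to E15.5, 4.49 ± 0.26 (SE, adjusted p = 9.85e-08) in EGFP+ cells, was the largest of the members on this scale, and that in EGFP- cells was 2.38.

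*Hs3st2*, of the same subfamily, was near 0 in all E11.5 libraries (0.071 and 0.118 FPKM in EGFP+ and 0.0433 and 0.0537 in EGFP- cells). It then stood at 3.75 and 3.05 against 0.11 and 0.103 FPKM at E13.5 and 5.29 and 6.35 against 0.934 and 1.75 at E15.5, with log2 differences of 1.99 ± 0.17 (SE, adjusted p = 4.32e-06) and 1.56 ± 0.17 (SE, adjusted p = 2.14e-05). *Hs3st5* was higher at all stages (0.66, 0.59 and 1.53 ± 0.13 SE, adjusted p = 5.4e-06). *Hs3st1* went the other way. It stood at 29.2 and 29.1 FPKM in EGFP+ and 20.5 and 22.8 in EGFP- cells at E13.5, where the log2 difference of 0.41 ± 0.24 (SE, adjusted p = 0.128) missed the threshold (adjusted p = 0.0176 with the replicate number as a block). By E15.5 it was down to 10.003 and 6.81 FPKM in EGFP+ cells against 21.2 and 16.8 in EGFP- cells, lower, with a difference of -1.10 ± 0.24 (SE, adjusted p = 0.0021). At E11.5 it had been higher, at 2.77 and 5.01 against 1.62 and 2.09 FPKM (0.74 ± 0.24 SE, adjusted p = 0.0119), a call lost with 0.62 without replicate 1 of the E11.5 EGFP- cells and 0.40 without replicate 2 of the E11.5 EGFP+ cells.

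Enzymes that act earlier on the chain differed by member. The N-deacetylase/N-sulfotransferase genes *Ndst3* and *Ndst4* were both higher in EGFP+ cells at E11.5, with *Ndst4* at 2.95 and 2.88 against 0.3004 and 0.249 FPKM (1.62 ± 0.26 SE, adjusted p = 0.000115) and *Ndst3* at 2.39 and 5.33 against 0.604 and 0.987 FPKM (1.38 ± 0.30 SE, adjusted p = 0.00113). *Ndst4* remained higher at E13.5, by 1.09 (adjusted p = 0.00251), and also at E15.5, where its EGFP+ libraries stood apart at 0.769 and 2.83 FPKM against 0.0419 and 0.0481. That E15.5 difference was 1.32 ± 0.26 (SE, adjusted p = 0.00119), and 0.76 without replicate 2 of the E15.5 EGFP+ cells, still past the threshold. *Ndst3* had the opposite sign at E15.5, 0.902 and 1.4 against 2.25 and 3.74 FPKM (-0.88 ± 0.30 SE, adjusted p = 0.0257), but lost this call with -0.61 without replicate 2 of the E15.5 EGFP- cells and -0.71 without replicate 1 of the E15.5 EGFP+ cells. *Hs2st1*, the 2-O-sulfotransferase gene, was lower in EGFP+ cells at E11.5, 16.4 and 14.7 against 36.7 and 32.3 FPKM (-1.10 ± 0.16 SE, adjusted p = 7.25e-05), and at E13.5 (-0.94, adjusted p = 0.00034). At E15.5 the populations were closer (-0.44), and that call was lost in 6 of the 12 omissions (values from -0.59 to -0.29).

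The 6-position of heparan sulfate is written by the HS6ST enzymes and erased outside the cell by the sulfatases SULF1 and SULF2, and genes of both kinds were lower in EGFP+ cells at E11.5. *Hs6st2*, on chromosome X, stood at 4.32 and 4.86 FPKM in EGFP+ and 18.8 and 15.4 in EGFP- cells at E11.5 (-1.69 ± 0.21 SE, adjusted p = 1.56e-05). At E15.5 it stood at 25.3 and 22.3 against 39 and 56.3 FPKM, again lower (-0.95 ± 0.21 SE, adjusted p = 0.0022). At E13.5 the order was opposite, 23.5 and 28.9 against 14.9 and 19.7 FPKM (0.58 ± 0.21 SE, adjusted p = 0.0234), a call lost with 0.38 without replicate 1 of the E13.5 EGFP- cells and 0.43 without replicate 2 of the E13.5 EGFP+ cells. This sequence of calls, lower, higher and lower, was shown by 2 of the 4859 genes.

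*Sulf1* was abundant in 1 group alone, the E11.5 EGFP- cells, at 32.1 and 27.1 FPKM against 3.11 and 2.98 in EGFP+ cells, a log2 difference of -2.91 ± 0.27 (SE, adjusted p = 2.3e-06). From E13.5 on its highest value in any library was 1.19 FPKM, and the differences of -0.16 ± 0.27 (SE, adjusted p = 0.588) at E13.5 and 0.47 ± 0.27 (SE, adjusted p = 0.147) at E15.5 missed the threshold. The meningeal or fibroblast markers moved with it, with sums of 136 and 115 FPKM in those same E11.5 libraries and at most 7.61 FPKM later, and their part in the *Sulf1* values was not tested. *Sulf2* was present in both populations at E11.5, 31.4 and 31.6 FPKM in EGFP+ and 57.2 and 51.9 in EGFP- cells (-0.77 ± 0.18 SE, adjusted p = 0.00207), and at E15.5 stood at 13.6 and 11 against 3.96 and 3.84 FPKM (1.43 ± 0.18 SE, adjusted p = 6.74e-05). Both genes fell with stage in both populations, *Sulf2* by log2 changes of -1.30 in EGFP+ and -3.50 in EGFP- cells. At E13.5 *Sulf2* was already higher in EGFP+ cells (0.53 ± 0.18 SE, adjusted p = 0.0209), lost with 0.53 in a fit of the compared groups only, 0.28 without replicate 2 of the E13.5 EGFP- cells and 0.42 without replicate 1 of the E13.5 EGFP+ cells.

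**Figure D4:**
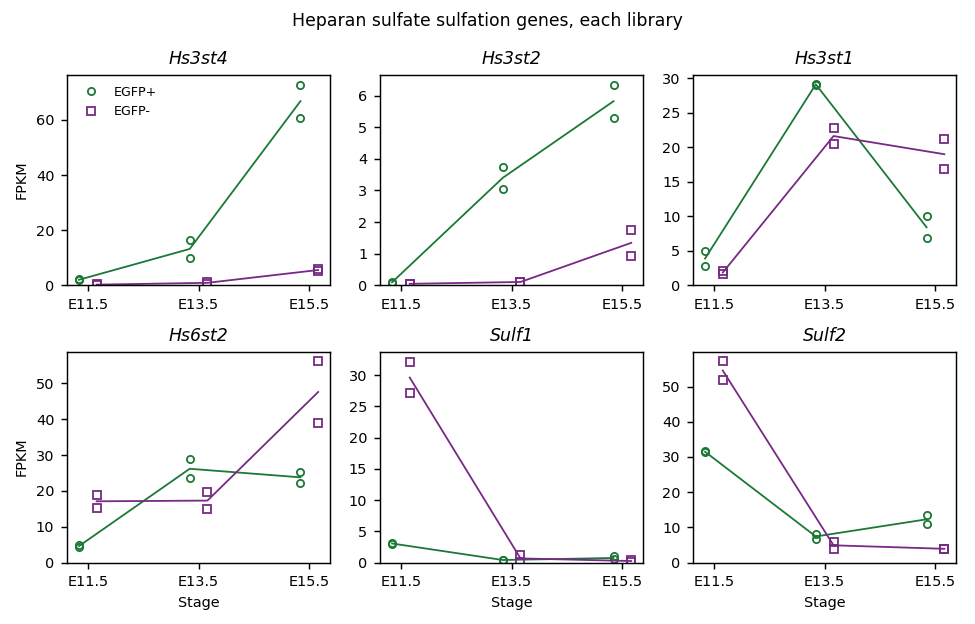
FPKM of 6 heparan sulfate sulfation genes in each library by stage, circles for EGFP+ and squares for EGFP- cells, with lines through the group means and a separate linear axis in each panel. *Hs3st4* and *Hs3st2* rise mainly in EGFP+ cells, the lines of *Hs3st1*, *Hs6st2* and *Sulf2* cross, and *Sulf1* is high in the 2 E11.5 EGFP- libraries only (32.1 and 27.1 FPKM).

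The chondroitin and dermatan sulfate enzymes had a balance of calls that depended on the scaling of the libraries. Of the 8 listed, 1 was higher and 3 lower at E11.5, and 1 was higher and 4 lower at both E13.5 and E15.5 (44.9%, 43.5% and 31.6% of all genes were lower at the 3 stages), whereas with median-of-ratios scaling the counts were 3 and 3 at E11.5, 3 and 2 at E13.5, then 2 and 3 at E15.5. *Chst3*, the chondroitin 6-O-sulfotransferase gene, had 0.367 and 0.422 FPKM in EGFP+ against 4.02 and 4.07 in EGFP- cells at E11.5, 0.231 and 0.108 against 3.34 and 2.1 at E13.5 and 0.0603 and 0.0573 against 1.05 and 0.518 at E15.5. No library of 1 population reached the other at any stage, and the log2 differences were -1.86 ± 0.18 (SE, adjusted p = 2.93e-06), -1.65 ± 0.18 (SE, adjusted p = 1.43e-05) and -0.74 ± 0.18 (SE, adjusted p = 0.00404). *Chst14*, for the sulfotransferase of dermatan sulfate, was lower as well (-0.99 at E11.5 and -0.56 at E13.5, adjusted p = 6.33e-05 and 0.00424), with 1.58 and 1.37 against 4.44 and 3.44 FPKM at the first stage. At E15.5 its difference of -0.43 was lost with -0.34 with median-of-ratios scaling, -0.44 without replicate 1 of the E15.5 EGFP- cells, -0.41 without replicate 2 of the E15.5 EGFP- cells, -0.41 without replicate 1 of the E15.5 EGFP+ cells and -0.44 without replicate 2 of the E15.5 EGFP+ cells. *Dse*, the epimerase gene that converts chondroitin to dermatan chains, was lower at E11.5, with 1.41 and 1.93 against 4.3 and 3.58 FPKM (-0.89 ± 0.14 SE, adjusted p = 0.0001).

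*Chst11*, the chondroitin 4-O-sulfotransferase gene, stood at 10.01 and 8.6 FPKM in EGFP+ and 8.13 and 6.19 in EGFP- cells at E11.5, where the difference of 0.34 ± 0.18 (SE, adjusted p = 0.0978) missed the threshold (adjusted p = 0.0434 with the replicate number as a block). It stood at 4.89 and 4.03 against 9.07 and 9.17 FPKM at E15.5, a lower level with a difference of -0.90 ± 0.18 (SE, adjusted p = 0.00145). Its paralog *Chst12* was instead higher at E15.5, 10.2 and 7.57 against 5.2 and 4.01 FPKM (0.81 ± 0.20 SE, adjusted p = 0.00439), so that the 2 genes for 4-O-sulfation had opposite calls at this stage. *Xylt1*, which encodes a xylosyltransferase that starts chondroitin and heparan sulfate chains, was lower in EGFP+ cells at E11.5, 2.46 and 2.87 against 12.2 and 9.87 FPKM (-1.71 ± 0.21 SE, adjusted p = 1.92e-05). It was also lower at E13.5 (-0.91, adjusted p = 0.00237, and -0.57 without replicate 1 of the E13.5 EGFP- cells, still past the threshold). At E15.5, after its level in EGFP- cells had gone down by a log2 change of -2.197 to 1.68 and 1.55 FPKM, the difference was 0.42 ± 0.21 (SE, adjusted p = 0.113).

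Radial glia markers were also lower in the EGFP+ libraries, as *Chst3* and *Chst14* were at the 3 stages and *Xylt1* at E11.5 and E13.5. *Chst11* was lower at E15.5 only, *Chst12* was higher at E15.5, and *Xylt1* was not called at E15.5. The 7 radial glia markers summed to 429.7 and 406 FPKM in EGFP+ against 1610.4 and 1328 in EGFP- cells at E11.5 and 149 and 86.3 against 794 and 439 FPKM at E15.5. Ganglionic eminence or interneuron markers were lower in the EGFP+ libraries as well. The part of these 2 lists in the differences of *Chst3*, *Chst14* and *Xylt1*, and that of the meningeal or fibroblast markers at E11.5, was not tested.

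The hyaluronan synthase genes parted by stage. *Has2* was expressed at E11.5, with 1.93 and 2.32 FPKM in EGFP+ against 0.767 and 0.737 in EGFP- cells (0.83 ± 0.11 SE, adjusted p = 2.87e-05), and its highest value in any E13.5 or E15.5 library was 0.188 FPKM. In EGFP+ cells *Has3* stood at 3.23 and 3.88 FPKM at E11.5 and 3.65 and 4.74 at E15.5 (log2 change 0.18 ± 0.19 SE, adjusted p = 0.383), while EGFP- cells went from 2.36 and 2.68 to 0.559 and 0.855 FPKM. The *Has3* difference was 0.37 ± 0.19 (SE, adjusted p = 0.0852) at E11.5 (adjusted p = 0.0473 with the replicate number as a block), 1.05 ± 0.19 (SE, adjusted p = 0.000373) at E13.5 and 1.60 ± 0.19 (SE, adjusted p = 3.49e-05) at E15.5.

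Of the 11 sialyltransferase genes listed, 7 were higher and 2 lower at E11.5 and again at E13.5, and 6 were higher and 1 lower at E15.5 (36.8%, 32.1% and 25.8% of all genes were higher at the 3 stages). *St3gal1* (chr15:67102875-67176830, minus strand), whose product caps O-glycans with sialic acid, had similar levels at E11.5, 2.74 and 2.5 FPKM in EGFP+ and 3.18 and 3.11 in EGFP- cells (-0.20 ± 0.24 SE, adjusted p = 0.457). It then stood at 16.5 and 20.2 against 1.72 and 3.87 FPKM at E13.5 and 37.6 and 30.7 against 7.67 and 6.77 FPKM at E15.5. The later libraries were far apart, with differences of 2.40 ± 0.24 (SE, adjusted p = 1.01e-05) and 2.09 ± 0.24 (SE, adjusted p = 3.38e-05). Its rise in EGFP+ cells, 3.28 ± 0.24 (SE, adjusted p = 4.83e-07), was exceeded among the members, on this scale, by that of *Hs3st4* alone.

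Polysialic acid is made on NCAM by the products of *St8sia2* and *St8sia4*. *St8sia2* was the most abundant member in the E11.5 EGFP+ cells, at 56.4 and 66.6 FPKM against 19.5 and 22.1 in EGFP- cells (1.52 ± 0.17 SE, adjusted p = 7.58e-06). At E15.5 the order of its libraries was opposite, 43.8 and 48 against 49.8 and 62.9 FPKM, with a difference of -0.28 ± 0.17 (SE, adjusted p = 0.164) that missed the threshold. *St8sia4* was higher at E11.5, 9.01 and 10.6 against 4.78 and 5.09 FPKM (0.86 ± 0.23 SE, adjusted p = 0.00403), and lower at E15.5, 4.25 and 5.07 against 8.62 and 10.7 FPKM (-0.91 ± 0.23 SE, adjusted p = 0.00521). At E13.5 it was lower, with a difference of -1.01 ± 0.23 (SE, adjusted p = 0.00182), and -0.65 without replicate 2 of the E13.5 EGFP+ cells, still past the threshold. *St8sia3*, for a sialyltransferase of gangliosides and glycoproteins, was higher at E11.5, 8.84 and 8.23 against 1.97 and 1.95 FPKM (1.69 ± 0.22 SE, adjusted p = 2.69e-05), and at E13.5 (1.64 ± 0.22 SE, adjusted p = 5.88e-05). At E15.5 its difference of 0.69 was lost with 0.62 without replicate 1 of the E15.5 EGFP- cells, 0.66 without replicate 1 of the E15.5 EGFP+ cells and 0.71 without replicate 2 of the E15.5 EGFP+ cells.

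Ganglioside synthesis begins with GM3, the product of *St3gal5*, to which the products of *St8sia1* and *B4galnt1* add sialic acid and N-acetylgalactosamine on the way to complex gangliosides. *B4galnt1* stood at 15.4 and 17.5 FPKM in EGFP+ against 2.32 and 2.89 in EGFP- cells at E11.5, 23.7 and 21.9 against 6.81 and 9.68 at E13.5 and 42.1 and 35 against 22.7 and 26.7 at E15.5. Levels rose in both populations, more so in EGFP- cells, and the libraries did not overlap. Its differences were 2.28 ± 0.18 (SE, adjusted p = 1.05e-06), 1.38 ± 0.18 (SE, adjusted p = 5.53e-05) and 0.62 ± 0.18 (SE, adjusted p = 0.0132), the last lost with 0.51 without replicate 1 of the E15.5 EGFP- cells and 0.49 without replicate 1 of the E15.5 EGFP+ cells. The opposite-strand partner of *B4galnt1* is *Slc26a10*. *St3gal5* was higher at all stages (0.75, 0.91 and 0.67 ± 0.16 SE, adjusted p = 0.0038), with 43.4 and 37.5 against 27.9 and 22.5 FPKM at E15.5. *St8sia1* was higher at E11.5, 9.09 and 9.99 against 4.16 and 3.73 FPKM (1.09 ± 0.19 SE, adjusted p = 0.00024), and at E15.5 had 11.9 and 10.7 against 12.7 and 14.3 FPKM (-0.24 ± 0.19 SE, adjusted p = 0.305). *Ugt8a*, which encodes the galactosylceramide synthase of myelin lipids, never exceeded 2.38 FPKM, and its call at E13.5 (-0.57 ± 0.19 SE, adjusted p = 0.0167) was lost with -0.31 without replicate 1 of the E13.5 EGFP- cells and -0.52 without replicate 2 of the E13.5 EGFP+ cells.

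Among the enzymes of N-glycan branching and fucosylation, 4 of 6 were higher and 2 lower at E11.5, 2 and 1 at E13.5, then 3 and 1 at E15.5. The shares of all genes were 36.8% higher and 44.9% lower, 32.1% and 43.5%, then 25.8% and 31.6%. *Mgat5b*, a branching enzyme that acts on O-mannose glycans in the brain, stood at 31.7 and 38 FPKM in EGFP+ against 9.15 and 10.1 in EGFP- cells at E11.5 (1.75 ± 0.17 SE, adjusted p = 2.83e-06). At E13.5 and E15.5 the populations overlapped (50.2 and 42.4 against 49.8 and 55.1 FPKM at E15.5), with differences of 0.12 ± 0.17 (SE, adjusted p = 0.527) and -0.18 ± 0.17 (SE, adjusted p = 0.369). *Fut10*, of the fucosyltransferase family, was lower at every stage, 0.84 and 0.767 against 5.72 and 5.74 FPKM at E11.5 (-1.90 ± 0.17 SE, adjusted p = 2.16e-06) and 0.3001 and 0.589 against 1.56 and 1.2 FPKM at E15.5 (-0.72 ± 0.17 SE, adjusted p = 0.00402). *Mgat4c* was low but higher in EGFP+ cells, with 1.39 and 1.93 against 0.186 and 0.214 FPKM at E15.5 (1.14 ± 0.13 SE, adjusted p = 3.43e-05) and 0.54 at E11.5 (adjusted p = 0.00258). *Fut9*, which makes the Lewis x epitope found on neural progenitors, was lower at E11.5, 1.9 and 2.26 against 4.24 and 5.49 FPKM (-0.92 ± 0.22 SE, adjusted p = 0.00232). At E15.5 it was higher by 0.61 ± 0.22 (SE, adjusted p = 0.0344), a call lost with 0.61 in a fit of the compared groups only, 0.51 without replicate 1 of the E15.5 EGFP- cells and 0.35 without replicate 2 of the E15.5 EGFP+ cells.

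The 7 polypeptide N-acetylgalactosaminyltransferases, which start mucin-type O-glycans, split by member. *Galnt9*, a brain-type member, stood in EGFP+ cells at 2.08 and 1.83 FPKM at E11.5, 4.004 and 3.71 at E13.5, then 16.5 and 15.2 at E15.5. The EGFP- libraries held 0.589 and 0.33, 0.531 and 0.571, and 2.9 and 2.46 FPKM. Each EGFP+ pair lay above the matching EGFP- pair, by 1.02 ± 0.16 (SE, adjusted p = 8.57e-05), 1.65 ± 0.16 (SE, adjusted p = 7.66e-06) and 2.196 ± 0.16 (SE, adjusted p = 1.45e-06). *Galnt14* was higher at E11.5, 7.52 and 8.72 against 2.06 and 1.78 FPKM (1.64 ± 0.35 SE, adjusted p = 0.000914). At E13.5 its replicates spread widely in both populations (5.31 and 2.24 against 2.66 and 1.17 FPKM), and the difference of 0.68 ± 0.35 (SE, adjusted p = 0.0914) missed the threshold (adjusted p = 0.00524 with the replicate number as a block). At E15.5 its call (0.87) was lost in 7 of the 12 omissions (values from 0.44 to 1.31). *Galnt12* had its highest values in the E11.5 EGFP- cells, 3.24 and 2.8 against 0.219 and 0.364 FPKM in EGFP+ cells (-1.64 ± 0.10 SE, adjusted p = 1.84e-07), and like *Sulf1* moved with the meningeal or fibroblast markers, whose part was not tested.

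*Galnt1*, the widely expressed member of that group, was lower in EGFP+ cells at E11.5, 22.2 and 21.8 against 41.8 and 35.8 FPKM (-0.79 ± 0.16 SE, adjusted p = 0.000848), and at E13.5, 13.496 and 10.4 against 26 and 22.3 FPKM (-0.96 ± 0.16 SE, adjusted p = 0.000293). At E15.5 its difference of -0.58 was lost with -0.50 without replicate 1 of the E15.5 EGFP- cells and -0.48 without replicate 1 of the E15.5 EGFP+ cells. *Galnt7* fell with stage in both populations, from 5.68 and 6.81 to 1.85 and 1.91 FPKM in EGFP+ cells (-1.33 ± 0.17 SE, adjusted p = 2.44e-05) and from 8.23 and 7.32 to 2.94 and 2.99 FPKM in EGFP- cells.

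A family of 8 genes holds enzymes that extend chains with galactose or N-acetylglucosamine, together with *B3galnt1* and *B3galtl*, whose products add other sugars. At each stage 3 were higher and 2 lower (36.8% and 44.9% of all genes at E11.5, 32.1% and 43.5% at E13.5, 25.8% and 31.6% at E15.5). Only *B3galt1* and *B3galt2* were among the higher and *B4galt1* among the lower throughout. *B3galt1* and *B3galt2*, for beta-3-galactosyltransferases, were higher at the 3 stages. *B3galt1* stood at 12 and 14.5 against 3.41 and 5.82 FPKM at E13.5 and 17.2 and 23 against 6.005 and 6.33 FPKM at E15.5 (1.37 ± 0.22 SE, adjusted p = 0.000218 and 1.54 ± 0.22 SE, adjusted p = 0.000161). Its E11.5 call (0.66) was lost with 0.53 without replicate 2 of the E11.5 EGFP- cells and 0.59 without replicate 1 of the E11.5 EGFP+ cells. *B3galt2* differed by 1.12 ± 0.21 (SE, adjusted p = 0.000419) at E11.5 and 1.11 ± 0.21 (SE, adjusted p = 0.00103) at E15.5, and by 0.62 at E13.5, lost with 0.51 without replicate 1 of the E13.5 EGFP- cells and 0.49 without replicate 1 of the E13.5 EGFP+ cells. *B4galt1*, for the galactosyltransferase that makes N-acetyllactosamine, was lower at all stages, from 2.5 and 2.17 against 5.08 and 5.31 FPKM at E11.5 (-0.90 ± 0.16 SE, adjusted p = 0.000272) to 0.546 and 0.578 against 2.01 and 1.33 FPKM at E15.5 (-0.76 ± 0.16 SE, adjusted p = 0.00188). *B3gnt5*, which starts lacto-series glycolipids, was lower at E13.5, 13.1 and 9.72 against 27.2 and 21.8 FPKM (-1.04 ± 0.18 SE, adjusted p = 0.000269), while its E15.5 difference of -0.48 was lost with -0.29 with median-of-ratios scaling, -0.48 in a fit of the compared groups only, -0.48 without replicate 1 of the E15.5 EGFP- cells, -0.48 without replicate 2 of the E15.5 EGFP- cells and -0.34 without replicate 1 of the E15.5 EGFP+ cells.

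*B3galnt2*, a gene of the O-mannose glycans of dystroglycan needed for the phosphorylated core of these glycans, stood at 1.69 and 2.18 against 9.34 and 8.36 FPKM at E11.5, 1.5 and 1.03 against 5.1 and 4.77 at E13.5 and 1.18 and 1.43 against 3.09 and 2.68 at E15.5. It was lower in every EGFP+ library of each stage, with differences of -1.75 ± 0.17 (SE, adjusted p = 3.43e-06), -1.40 ± 0.17 (SE, adjusted p = 3.35e-05) and -0.75 ± 0.17 (SE, adjusted p = 0.00297).

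From E11.5 to E15.5, 41 members (63.1%) were called in the same direction in both populations, against 57.3% of all genes. In EGFP+ cells 33 members rose and 20 fell (50.8% and 30.8%, against 33.3% and 42.1% of all genes), and in EGFP- cells 35 rose and 21 fell (53.8% and 32.3%, against 37.7% and 47.6%). The median change of the members was 0.36 and 0.62 on the log2 scale, against -0.18 and -0.32 over all genes. Rises in both populations were called for 28 members (24.6% of all genes), falls in both for 13 (32.7% of all genes). Besides *Chst2*, described above, 3 members were called in opposite directions: *Ndst3*, *St8sia2* and *St8sia4* fell in EGFP+ and rose in EGFP- cells, a pattern of 3.93% of all genes.

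The values behind these 3 differ in their firmness. *St8sia4* changed by -0.93 ± 0.23 (SE, adjusted p = 0.00283) in EGFP+ and 0.84 ± 0.23 (SE, adjusted p = 0.00447) in EGFP- cells. *Ndst3* changed by 1.14 ± 0.30 (SE, adjusted p = 0.00369) in EGFP- cells and by -1.12 ± 0.30 (SE, adjusted p = 0.00513) in EGFP+ cells, the latter lost with -0.67 without replicate 2 of the E11.5 EGFP+ cells. *St8sia2* rose by 1.39 ± 0.17 (SE, adjusted p = 1.13e-05) in EGFP- cells, and its change of -0.41 in EGFP+ cells was lost in 7 of the 12 omissions (values from -0.53 to -0.29). On this scale the largest falls were those of *Sulf1* and *Sulf2* in EGFP- cells (-4.63 ± 0.27 SE, adjusted p = 7.08e-08 and -3.50 ± 0.18 SE, adjusted p = 4.15e-08), and the largest in EGFP+ cells was that of *Has2* (-1.61 ± 0.11 SE, adjusted p = 2.72e-07). *B4galnt1* and *Hs3st1* had the largest rises in EGFP- cells (2.83 ± 0.18 SE, adjusted p = 1.39e-07 and 2.80 ± 0.24 SE, adjusted p = 8.37e-07), and *B3gat2* followed *Hs3st4* and *St3gal1* in EGFP+ cells (2.997 ± 0.24 SE, adjusted p = 7.73e-07).

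**Figure D5:**
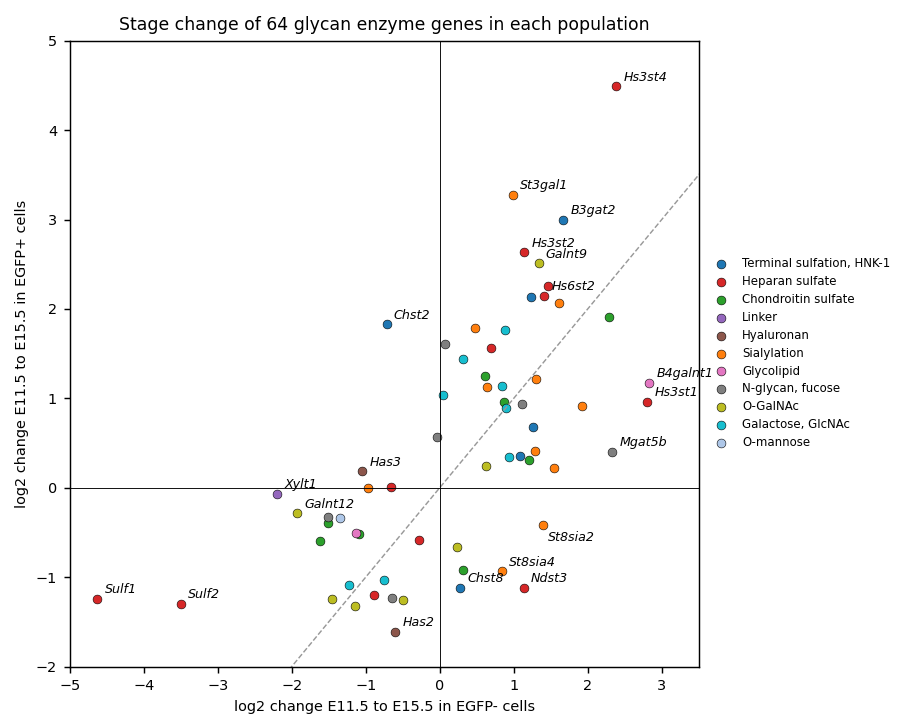
Change in log2(FPKM + 1) between E11.5 and E15.5 for 64 of the genes, in EGFP- cells on the x axis and in EGFP+ cells on the y axis, coloured by enzyme family, with a dashed line of equal change. *Hs3st4* (4.49 in EGFP+ and 2.38 in EGFP- cells) lies at the top, *Sulf1* (-4.63 in EGFP- cells) at the far left, and *Chst2* is the point at the upper left with opposite changes.

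The population difference itself changed between E11.5 and E15.5 for 43 members, upward for 26 (40%) and downward for 17 (26.2%), against 32% and 27.7% of all genes (interaction term of the same fit). The size of this change depends on the log scale for genes that start low: for *Hs3st4* it was 2.11 ± 0.37 (SE, adjusted p = 0.000581), and 0.99 with a pseudocount of 0.1, where the call was lost. These comparisons share libraries, so the counts of the stages, the stage changes and the interaction are not separate evidence.

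The proteins that carry these glycans were examined from a list of 24 proteoglycan core genes, of which 19 are in the table. In EGFP+ cells 6 were higher and 12 lower at E11.5, 6 and 10 at E13.5, then 5 and 6 at E15.5. Of all genes, 36.8% were higher and 44.9% lower at E11.5, 32.1% and 43.5% at E13.5, then 25.8% and 31.6% at E15.5. *Spock2*, a testican that carries heparan sulfate, stood at 59.3 and 79.9 FPKM in EGFP+ against 11.6 and 15.3 in EGFP- cells at E15.5 (2.28 ± 0.20 SE, adjusted p = 6.02e-06), *Vcan* (versican) at 48.7 and 51.1 against 17.1 and 17.4 (1.48 ± 0.12 SE, adjusted p = 3.87e-06) and *Spock1* at 55.6 and 63.4 against 22.1 and 23 (1.36 ± 0.33 SE, adjusted p = 0.00463). Lower were *Bcan* (brevican), 1.8 and 1.4 against 12.8 and 6.42 FPKM (-1.96 ± 0.25 SE, adjusted p = 6.74e-05), and *Bgn* (biglycan), 0.163 and 0.834 against 2.87 and 2.6 FPKM (-1.35 ± 0.20 SE, adjusted p = 0.000201). The sets did not overlap between populations for any of the 5 genes, which were named for their large called differences at this stage. Of all genes at E15.5, 34.7% had both EGFP+ libraries above and 44.6% both EGFP- libraries above.

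Of 13 glycan carriers and receptors, 8 are in the table, with 5 higher and 3 lower in EGFP+ cells at E11.5, 4 and 2 at E13.5, then 2 and 1 at E15.5. The shares of all genes were 36.8% higher and 44.9% lower, 32.1% and 43.5%, then 25.8% and 31.6%. *Hmmr*, a hyaluronan receptor gene that is also expressed in dividing cells, was the 1 lower at E15.5, at 0.157 and 0.319 against 3.41 and 2.02 FPKM (-1.56 ± 0.25 SE, adjusted p = 0.000341), and the 5 cell cycle markers summed to 5.88 and 5.48 against 78.4 and 40.3 FPKM in the same libraries. Of 27 genes for sulfate and sugar donors, 2 are in the table, 0 higher and 2 lower at E11.5.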

How the data were processed

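Bulk RNA-seq of FACS-sorted cells was analysed, 12 libraries in 6 groups of 2, grouped by the stage, population and replicate in their labels. The authors deposited FPKM per gene and library (TopHat2 2.0.8b alignment to mm10, then Cufflinks 2.2.0), for 4859 coding genes that they reported as differential. The deposited FPKM are scaled by transcript length and mapped fragments. The table also holds the authors' group means, folds, p-values and q-values, which were not used, and a table of lncRNA transcripts was not used. FPKM do not give fragment counts back, so the depth of each library is unknown and no counting interval is given. Listed values summed to between 111136 and 146703 FPKM per library.

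Tests used limma 3.58.1 (R 4.3.3) on log2(FPKM + 1), with the 6 groups and their 12 libraries fitted together and a variance trend. Two-sided p-values received Benjamini-Hochberg adjustment over all 4859 genes of each comparison, and a call needed a value under 0.05. On this scale differences of weakly expressed genes are understated. The comparisons were EGFP+ against EGFP- cells at each stage, E15.5 against E11.5 within each population, and the change of the population difference between these stages. The procedure was first tested on simulated data. As groups held 2 libraries, no outlying library could be identified, and p-values rest on the spread within 6 pairs.

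Members were found by gene symbol and sorted into enzyme families by hand. The members, families, marker lists and lists of pathway genes were chosen with earlier results of these data known. Genes were named by rule: *Chst8*, at each stage the 8 members with the largest called difference in each direction without overlap between populations, the 4 largest called stage changes and interaction terms in each direction, the 2 members per family with the largest mean absolute difference, the 3 most like *Chst8*, and for the other pathway genes the 3 largest called in each direction at E15.5. This gave 38 members; 1 more is counted among the 65 but not reported here by name or plotted, and the other 26 are named where they complete a family or pattern. Gene positions are those of GENCODE M21 (GRCm38), and promoter sequences those of RefSeq (GRCm38.p6).

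Alternatives were a pseudocount of 0.1, median-of-ratios scaling, a mean FPKM of at least 1, no variance trend, a fit restricted to the groups compared, a block for the replicate number, and leaving out each library. Both populations of a stage share replicate numbers, and libraries with the same number deviated together from the means of their groups. The correlations over genes were 0.431, 0.534 and 0.431 at the 3 stages. Only the fit with the block treated these numbers as pairs. The main fit and the omissions of a library did not, and with the block 0 calls of members were lost and 20 gained.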

Additional observations from a re-analysis of the deposited data

Results flagged for a closer look

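Given here are 8 members, the 4 with the largest called interaction term of the limma fit in each direction between E11.5 and E15.5. Upward changes of *Xylt1* (2.13) and *Hs3st4* (2.11) were larger in size than some of the downward ones. The population difference (EGFP+ minus EGFP- in log2(FPKM + 1)) grew by 3.39 ± 0.38 (SE, adjusted p = 3.76e-05) for *Sulf1*, from -2.91 to 0.47. This gene was abundant only in the E11.5 EGFP- libraries, which also held the highest sums of meningeal or fibroblast markers. For *Chst2* the change was 2.55 ± 0.21 (SE, adjusted p = 6.69e-06), for *St3gal1* 2.29 ± 0.34 (SE, adjusted p = 0.000231) and for *Sulf2* 2.204 ± 0.26 (SE, adjusted p = 5.03e-05). The difference moved the other way for *Ndst3* (-2.25 ± 0.42 SE, adjusted p = 0.000942), *Mgat5b* (-1.93 ± 0.23 SE, adjusted p = 5.99e-05), *Hs3st1* (-1.84 ± 0.33 SE, adjusted p = 0.000754) and *St8sia2* (-1.80 ± 0.24 SE, adjusted p = 0.000103). Among these, *Chst2* and *Sulf2* went from lower to higher in EGFP+ cells and *Ndst3* and *Hs3st1* from higher to lower, *Mgat5b* and *St8sia2* were higher at E11.5 and not called at E15.5, and *St3gal1* was not called at E11.5. The 8 calls were kept under every omission of a library and under each other alternative. The interaction uses the same libraries as the comparisons within stages. No sample could be judged as lying far from its group, since groups hold 2 libraries.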

How the results depend on the processing

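Of the counts of members called, 1 moved by over 1.5 times: without replicate 1 of the E15.5 EGFP+ cells 8 members were lower at E15.5, against 15 with all libraries, and the cause was not tested. Over the 12 omissions the higher and lower counts ranged at E11.5 from 27 to 31 and 18 to 19, at E13.5 from 22 to 30 and 11 to 17, at E15.5 from 21 to 29 and 8 to 15, from 29 to 35 and 16 to 21 for the stage change in EGFP+ cells, from 32 to 35 and 21 to 22 in EGFP- cells, and from 22 to 28 and 13 to 19 for the interaction. Of 183 calls of the 38 named members, 8 were lost with median-of-ratios scaling, 7 with a pseudocount of 0.1, 7 with the compared groups only, 2 without trend and, of 170 that could be tested, 0 with a mean FPKM of at least 1. With the replicate number as a block, the counts at E13.5 were 36 higher and 15 lower (29 and 14 without it), 0 calls of members were lost and 20 were gained, 13 within stages and 7 of the interaction, among them *Galnt14* (0.68) and *Hs3st1* (0.41) at E13.5 and *Has3* (0.37) and *Chst11* (0.34) at E11.5. The stage changes have no blocked fit, since the numbers pair populations within a stage. For the omissions and for these blocked counts, shares of all genes are not given here, so the moves cannot be called particular to the members. Median-of-ratios scaling moved the median difference of all genes by 0.19 at E11.5, 0.19 at E13.5, 0.13 at E15.5, 0.14 and 0.22 for the stage changes in EGFP+ and EGFP- cells, and the share of higher calls at E13.5 from 67.4% to 75% for the members and from 42.4% to 52% for all genes, and at E15.5 from 65.1% to 73.8% and from 45% to 54.7%.

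Directions that turned were all of differences that were not called, and the cause was not tested. With median-of-ratios scaling they were *Mgat5b* (0.0273) at E15.5, *Galnt12* (0.0151) at E13.5 and *B3gnt5* (0.0435) at E11.5, and with a pseudocount of 0.1 *Galnt12* (0.00387) at E13.5. Over the omissions of a library, E13.5 differences ranged from -0.0705 to 0.31 for *Mgat5b*, -0.0970 to 0.22 for *St8sia2*, -0.64 to 0.32 for *Sulf1* and -0.12 to 0.0495 for *Has2*, turned by replicate 1 of the EGFP- cells (*Has2* also by replicate 2 of the EGFP+ cells), from -0.18 to 0.40 for *Ndst3*, turned by replicate 1 of the EGFP+ cells, and from -0.0179 to 0.0177 for *Galnt12*. The E15.5 difference ranged from -0.0283 to 0.0319 for *Galnt12*, and the E11.5 difference from -0.0181 to 0.17 for *B3gat2*. The fragment depth is unknown, which limits what can be said of genes under 1 FPKM.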

Other observations

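Members outside the naming rule that were not described in full above are given here to complete the account. The genes were not chosen by their values, but the stage or change shown is mostly one where the gene was called. Among the sialyltransferases, *St6galnac5*, whose product adds sialic acid to gangliosides, stood at 11.54 and 10.8 FPKM in EGFP+ against 5.25 and 4.39 in EGFP- cells at E15.5 (1.07 ± 0.16 SE, adjusted p = 0.00024). *St6gal1*, for the enzyme that adds alpha-2,6-linked sialic acid to N-glycans, was higher at E11.5, 16.4 and 18 against 10.8 and 10.5 FPKM (0.65 ± 0.16 SE, adjusted p = 0.00222). *St3gal6* was lower there, 0.132 and 0.125 against 1.47 and 1.3 FPKM (-1.08 ± 0.13 SE, adjusted p = 1.61e-05), and *St6galnac6* as well (-0.80 ± 0.16 SE, adjusted p = 0.000628). *St6galnac4* was higher at E13.5 (0.88 ± 0.17 SE, adjusted p = 0.000813). The libraries of the populations did not overlap in these 5 differences.

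Of the chondroitin sulfate enzymes, *Chst15*, which makes doubly sulfated units, was higher in EGFP+ cells at E11.5, 8.17 and 9.12 against 5.16 and 4.5 FPKM (0.73 ± 0.19 SE, adjusted p = 0.00341). *Ust*, the uronyl 2-O-sulfotransferase gene, rose from E11.5 to E15.5 in both populations (1.91 ± 0.18 SE, adjusted p = 2.28e-06 and 2.28 ± 0.18 SE, adjusted p = 4.68e-07), and *Chpf*, for a chain polymerising factor, did so too (0.96 ± 0.15 SE, adjusted p = 0.000156 and 0.87 ± 0.15 SE, adjusted p = 0.000222). Between the populations *Ust* was lower in EGFP+ cells at E13.5 (-0.66, lost with -0.41 with median-of-ratios scaling). It was also lower at E15.5 (-0.68, lost with -0.51 without replicate 1 of the E15.5 EGFP+ cells). The heparan gene *Hs3st3a1* fell with stage in both populations (-1.200 ± 0.10 SE, adjusted p = 1.48e-06 and -0.89 ± 0.10 SE, adjusted p = 9.42e-06). *Hs6st3* rose in both (2.26 ± 0.43 SE, adjusted p = 0.000521 and 1.47 ± 0.43 SE, adjusted p = 0.00716), but its E15.5 replicates lay far apart, 2.71 and 10.2 FPKM in EGFP+ and 1.53 and 4.79 in EGFP- cells, and the rises were 1.46 without replicate 2 of the E15.5 EGFP+ cells and 0.87 without replicate 2 of the E15.5 EGFP- cells, the latter no longer called.

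*B3galnt1*, the globoside synthase gene, was higher at E15.5, 13.2 and 14.4 against 5.86 and 6.4 FPKM (1.05 ± 0.23 SE, adjusted p = 0.00259). *B3galtl* (now *B3glct*), which completes the O-fucose disaccharide of thrombospondin repeats, was lower at E11.5 (-0.96 ± 0.18 SE, adjusted p = 0.000402), and *B4galt3* was higher (0.67 ± 0.16 SE, adjusted p = 0.00228). *B4galt2* rose with stage in both populations (1.13 ± 0.14 SE, adjusted p = 1.65e-05 and 0.84 ± 0.14 SE, adjusted p = 0.000109). *Mgat4b*, for an N-glycan branching enzyme, was higher at E11.5 and E13.5 (0.51 ± 0.13 SE, adjusted p = 0.00374 and 0.57 ± 0.13 SE, adjusted p = 0.00235), and its E15.5 call (0.34) was lost in 10 of the 12 omissions (values from 0.26 to 0.42). *Fut8*, the core fucosyltransferase gene, fell in EGFP+ cells from 24 and 21.5 to 7.64 and 10.8 FPKM (-1.23 ± 0.19 SE, adjusted p = 0.000109). Of the O-glycan starters, *Galnt18* was higher at E11.5 (0.88 ± 0.20 SE, adjusted p = 0.00142) and *Galnt15* at E13.5 (0.95 ± 0.18 SE, adjusted p = 0.000639), the latter listed at 0 in both E11.5 EGFP- libraries.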
